A study of Homo sapiens with 12 samples.

Results

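The 38 genes described here encode cyclins and cyclin-dependent kinases (CDKs), and each was found by its symbol once in the count table of 92.1 (44938 features) and once in that of MP38 (42342 features). They were read in 5 classes by role: 5 genes of G1 (CCND1, CCND2, CCND3, CDK4 and CDK6), 5 of S phase (CCNE1, CCNE2, CCNA1, CCNA2 and CDK2), 4 of G2 and mitosis (CDK1, CCNB1, CCNB2 and CCNF), 13 of transcription and 11 with other roles. The human uveal melanoma lines 92.1 and MP38 were each kept for 72 hours in VE-822 (berzosertib), an inhibitor of ATR, the kinase that answers stalled replication forks, or in its solvent DMSO. Each line and treatment had 3 libraries of poly(A) RNA, 12 libraries in all. The dose of VE-822 is not stated in the labels; it was adjusted for about 40% viability and may differ between the lines, so dose and line cannot be told apart. Each line stands for a single tumour, and no label says that the libraries of a group were grown as separate cultures, so the p-values may measure technical spread only.

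Total counts were 113370680 to 137664800 per library in 92.1 in VE-822 and 112374503 to 123705501 in 92.1 in DMSO. In MP38 they were 54415628 to 60891725 in VE-822 and 61045071 to 63638976 in DMSO. In 92.1, DMSO library 3 stood apart from the other 5 libraries on the second principal component, which held 13.9% of the variance, so the results of 92.1 are also given without it. Of 7 markers of the melanocyte lineage, 6 reached a mean of 1 FPKM in 92.1 in VE-822 and all 7 did in the other groups. Their summed level was 5394 to 5502 FPKM (fragments scaled by gene length and library total, as deposited) in 92.1 in VE-822, 4937 to 4960 in 92.1 in DMSO, 1451 to 1509 in MP38 in VE-822 and 1202 to 1245 in MP38 in DMSO. No marker of leukocytes, endothelium, fibroblasts or epithelium reached a mean of 1 FPKM in any group.

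A CDK is a protein kinase that is inactive until a cyclin binds it. D-type cyclins with CDK4 and CDK6 open the cell cycle in G1, cyclin E and cyclin A with CDK2 start and carry DNA replication, and cyclins A and B with CDK1 drive entry into mitosis. The transcripts of the late cyclins and of CDK1 are made mainly in S, G2 and M, so their level in a culture follows the share of cells in these phases as well as the rate of transcription in each cell. In bulk RNA, fewer cells in a phase and less RNA per cell cannot be told apart. A separate branch of the family (CDK7, CDK8, CDK9, CDK12, CDK13 and their cyclins) phosphorylates RNA polymerase II or acts in the Mediator complex and does not depend on the phase of the cycle.

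Genes of G2 and mitosis are known to be controlled through promoter elements of 2 kinds: the CHR, bound by MuvB complexes, and CCAAT boxes, bound by NF-Y. E2F sites are bound by the E2F factors, which act around the start of S phase. The promoters of the 4 G2/M genes and of CCNA2 are shown because these 5 genes moved together in both lines. Each sequence is the 150 bases before an annotated start, read 5′ to 3′ on the gene's strand, from RefSeq on GRCh38.p14. Capitals mark every match, on either strand, to the CHR (TTTGAA, or its variant form TTCGAA), the CCAAT box, which reads ATTGG when on the other strand, or E2F (TTTCCCGC, TTTGGCGC, TTTCGCGC or TTTGCCGC). CDK1 has 2 annotated starts 147 bases apart, and the downstream one is shown.
CDK1 (chr10:60778328-60778477, plus strand): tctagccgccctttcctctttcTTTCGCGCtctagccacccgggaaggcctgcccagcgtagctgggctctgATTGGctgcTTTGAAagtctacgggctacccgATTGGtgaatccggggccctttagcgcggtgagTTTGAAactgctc
CCNB1 (chr5:69167000-69167149, plus strand): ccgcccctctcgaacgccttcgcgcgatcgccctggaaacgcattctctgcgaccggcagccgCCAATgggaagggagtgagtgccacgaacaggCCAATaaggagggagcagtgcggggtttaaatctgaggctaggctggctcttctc
CCNB2 (chr15:59104996-59105145, plus strand): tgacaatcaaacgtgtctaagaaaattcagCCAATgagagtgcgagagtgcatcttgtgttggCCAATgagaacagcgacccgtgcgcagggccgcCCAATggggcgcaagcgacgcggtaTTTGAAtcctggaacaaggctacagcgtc
CCNF (chr16:2429297-2429446, plus strand): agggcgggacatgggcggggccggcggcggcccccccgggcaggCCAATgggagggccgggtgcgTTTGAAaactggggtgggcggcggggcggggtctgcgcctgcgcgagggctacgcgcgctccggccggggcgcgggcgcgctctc
CCNA2 (chr4:121823884-121824033, minus strand): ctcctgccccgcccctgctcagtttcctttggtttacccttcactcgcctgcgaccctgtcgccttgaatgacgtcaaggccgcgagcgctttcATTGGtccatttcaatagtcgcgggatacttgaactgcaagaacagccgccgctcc

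Over the whole window of 250 bases before to 50 after any annotated start, all 4 G2/M genes held at least 2 CCAAT boxes, against 12.9% of the 27305 genes with a promoter entry. A CHR match was present in 3 of the 4 (CDK1, CCNB2 and CCNF), against 19.5% of all genes. Both features together were found in these 3 genes, in the transcriptional member CDK19 and in 2.89% of all genes. An E2F match was present in CDK1 alone of the 4, against 3.99% of all genes. CCNA2 held 1 CCAAT box and no match to the words searched for the other motifs. Of the 34 members with an entry, 6 had a CHR match, 4 an E2F match and 8 at least 2 CCAAT boxes; CCND1, CCND2, CCNE2 and CDK2 had no entry. The matches are letters in a window and were not tested as binding sites. Only the words listed above were searched, so a gene without a match, such as CCNB1 or CCNA2 for the CHR, may hold another form.

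**Figure D1:**
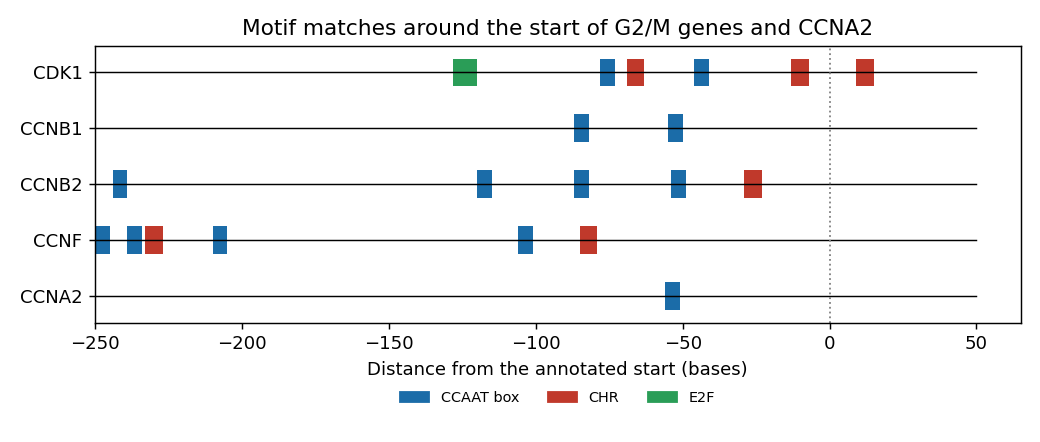
Positions of CHR (red), CCAAT (blue) and E2F (green) matches in the promoters of CDK1, CCNB1, CCNB2, CCNF and CCNA2, as distance in bases from the annotated start (dotted line), over 250 bases before to 50 after it. All 4 G2/M genes hold at least 2 CCAAT boxes and 3 of them hold a CHR match; CCNA2 holds 1 CCAAT box.

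Expression was compared on counts with edgeR's quasi-likelihood test, and a gene is called when its Benjamini-Hochberg adjusted p, taken across every gene in the fit, is under 0.05. Fold changes are on the log2 scale, VE-822 over DMSO, with their standard error (SE); levels are CPM (counts scaled to library size by TMM), for each library or as mean ± SD over n = 3 libraries. In 92.1, 3 of 37 members tested were higher in VE-822, 19 were lower and 15 were not called, against 39.9% of all 22943 genes called: 4658 higher (20.3%) and 4498 lower (19.6%). Without DMSO library 3, 4 members were higher and 24 lower, against 55.7% of all genes called (26.8% higher and 29% lower). Scaling by library size alone gave 5 members higher and 16 lower, and 5684 genes higher and 3534 lower; limma on log2(FPKM + 1) gave the same 2 counts of members, with 5306 genes higher and 3272 lower.

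In MP38 the balance ran the other way. There, 19 of 37 members tested were higher in VE-822, 7 were lower and 11 were not called, against 52.3% of all 21415 genes called: 5750 higher (26.9%) and 5444 lower (25.4%). CCND2 was too low to test in 92.1 and CCNA1 in MP38. Some small changes rested on single libraries: leaving out 1 library ended the calls of CCND3, CCNJ, CCNO, CDK16 and CDK18 in 92.1 (adjusted p up to 0.174), for 4 or 5 of the 6 choices. In MP38 it ended those of CCNC, CCNO, CDK4, CDK14 and CDK18 (up to 0.194, for 4 or 5 choices), of CCNE2 for 3 choices, and of CCNG2 without DMSO library 1 (adjusted p = 0.0501). Changes past 1 on the log2 scale were few. In 92.1 they were CCNA2, CDK1, CCNB2, CCNF, CCNB1 and CCNE2, all lower, or 6 of 37 members against 3.21% of all genes in that direction. In MP38 they were CDK1, CCNB2 and CCNB1, all higher, or 3 of 37 members against 4.57% of all genes in that direction.

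**Figure D2:**
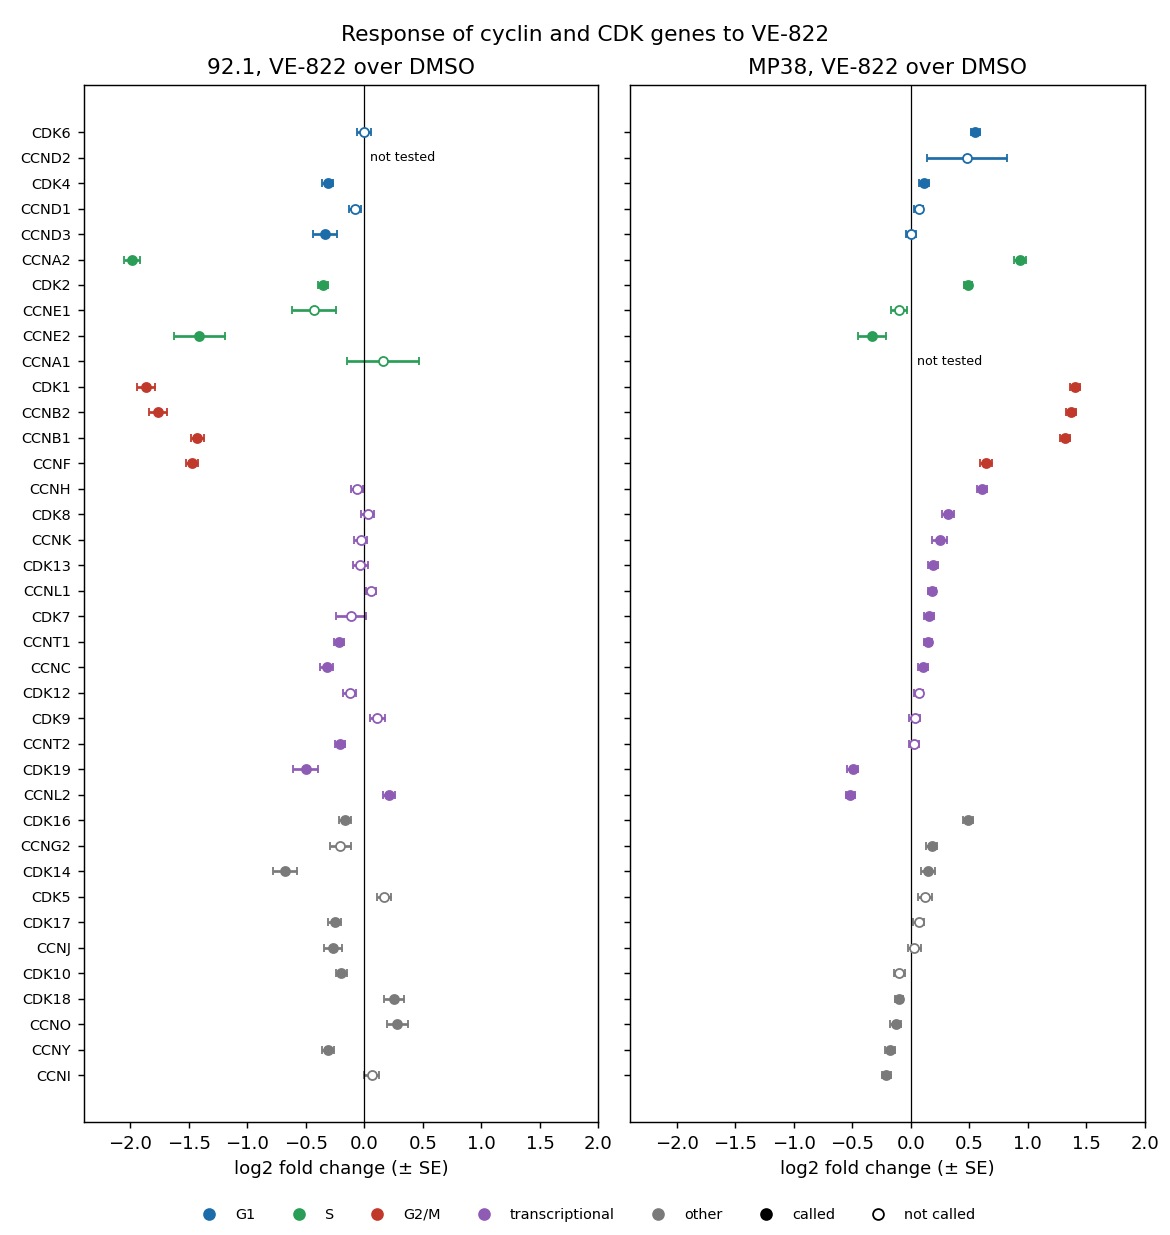
Log2 fold change of each member in VE-822 over DMSO in 92.1 (left) and MP38 (right), with SE bars; colour gives the class, filled points are called and open points are not. The 4 G2/M genes lie between -1.87 and -1.43 in 92.1 and between 0.64 and 1.40 in MP38, while most transcriptional members lie near 0.

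The 4 genes of G2 and mitosis were called in both lines, lower in VE-822 in 92.1 and higher in VE-822 in MP38. Across all genes tested in both lines, 8.32% had that pattern. The median log2 fold change of the 4 genes was -1.62 in 92.1, where the median of all genes was 0.03. In MP38 it was 1.34, where the median of all genes was -0.01. Without DMSO library 3, all 4 were again called lower in 92.1, against 29% of all genes, with a median of -1.62.

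CDK1 (chr10:60778331-60794852, GRCh38.p13) encodes the kinase that drives cells into mitosis. In 92.1 it stood at 53.5, 50.5 and 45.1 CPM in the VE-822 libraries, against 188.7, 187.1 and 167.5 CPM in the DMSO libraries. In MP38 it stood at 77.8, 77.2 and 76.3 CPM in VE-822, against 27.3, 30.2 and 29.9 CPM in DMSO. The groups did not overlap in either line, as for 52.9% of all genes in 92.1 and 58.7% in MP38, and they lay in opposite order. The log2 fold change was -1.87 ± 0.0764 in 92.1 (adjusted p = 9.14e-07) and 1.40 ± 0.0436 in MP38 (adjusted p = 8.86e-16). Taken directly, the 92.1 response minus the MP38 response was -3.24 ± 0.0959 (adjusted p = 8.68e-13, edgeR interaction test over all 12 libraries).

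CCNB1 (chr5:69167135-69178245) encodes cyclin B1, the main partner of CDK1 in mitosis. It had 66.2, 64.4 and 59.9 CPM in VE-822 in 92.1, against 176, 174 and 164 CPM in DMSO. MP38 had 102, 102 and 110 CPM in VE-822, against 42.3, 42.1 and 41.1 CPM in DMSO. The fold changes were -1.43 ± 0.0552 in 92.1 and 1.32 ± 0.0409 in MP38, a difference of -2.72 ± 0.0737.

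CCNB2 (chr15:59105126-59125045), the second B-type cyclin, had 20.4, 19.3 and 17.0 CPM in VE-822 in 92.1, against 62.4, 61.5 and 69.0 CPM in DMSO. The MP38 libraries had 75.3, 74.7 and 79.6 CPM in VE-822, against 29.7, 30.4 and 28.9 CPM in DMSO. Again no VE-822 library reached the range of the DMSO libraries in either line, and the fold changes were -1.76 ± 0.0804 in 92.1 and 1.37 ± 0.0419 in MP38.

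CCNF (chr16:2429394-2458854) encodes cyclin F, which binds no CDK but is the substrate receptor of a ubiquitin ligase in G2. It had 34.4, 33.1 and 31.6 CPM in VE-822 in 92.1, against 92.3, 89.8 and 93.5 CPM in DMSO. Its MP38 levels were 23.8, 24.0 and 24.8 CPM in VE-822, against 15.1, 14.9 and 16.5 CPM in DMSO. Its fall in 92.1, -1.48 ± 0.0511, was of the size of that of the B-type cyclins, and its rise in MP38, 0.64 ± 0.0534, was the smallest of the 4.

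**Figure D3:**
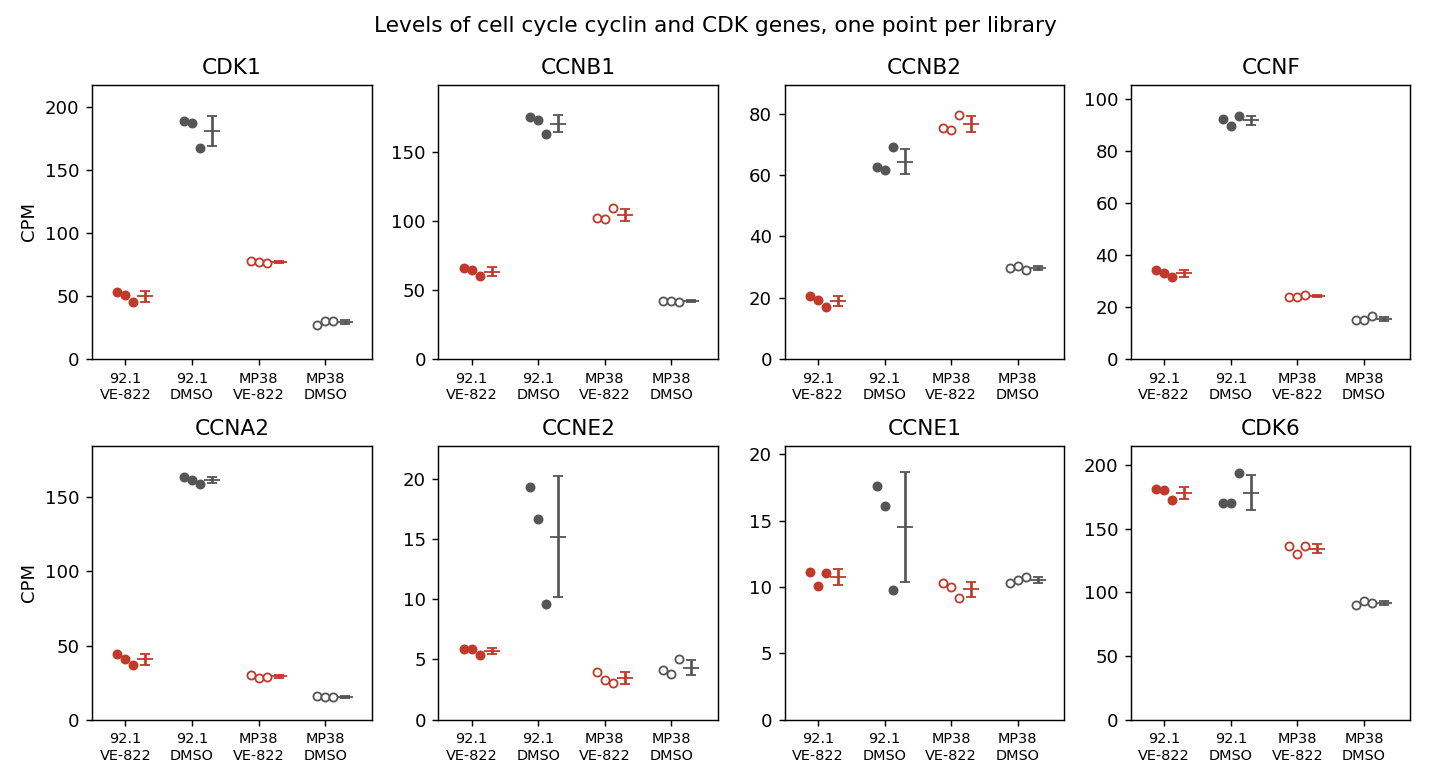
Levels in CPM of CDK1, CCNB1, CCNB2, CCNF, CCNA2, CCNE2, CCNE1 and CDK6, 1 point per library, with mean and SD bars; filled points are 92.1, open points MP38, red VE-822 and grey DMSO. In 92.1 the VE-822 points of CDK1 lie at 45.1 to 53.5 CPM, under the DMSO points, and in MP38 at 76.3 to 77.8 CPM, above them; 1 DMSO library of 92.1 lies apart for CCNE1 and CCNE2.

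The S-phase class did not move as 1 group. CCNA2 followed the G2/M genes in both lines, CDK2 moved the same way but less, CCNE2 was lower in both lines and CCNE1 was called in neither. Of the 5 genes, 3 were lower in 92.1 (CCNA2, CCNE2 and CDK2), where 39.9% of all genes were called, with a class median of -0.43. Without DMSO library 3, when 55.7% of all genes were called, the count was 4 and the median -0.68. In MP38, where 52.3% of all genes were called, 2 of the 4 tested were higher (CCNA2 and CDK2) and 1 lower (CCNE2), with a median of 0.19.

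CCNA2 (chr4:121816444-121823883) encodes cyclin A2, which binds CDK2 in S phase and CDK1 later. It had 44.3, 41.2 and 36.8 CPM in VE-822 in 92.1, against 163, 162 and 159 CPM in DMSO. Its levels in MP38 were 30.3, 28.4 and 29.1 CPM in VE-822, against 15.9, 15.0 and 15.1 CPM in DMSO. Its log2 fold change of -1.98 ± 0.0689 was the lowest of all members in 92.1, and in MP38 it rose by 0.93 ± 0.0504. The difference between the lines was -2.89 ± 0.0874 (adjusted p = 1.04e-12). Counted with the G2/M genes in place of the S genes, CCNA2 brought the G2/M median to -1.76 in 92.1 and 1.32 in MP38.

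The E-type cyclins activate CDK2 at the passage from G1 to S. CCNE2 had 5.89, 5.85 and 5.39 CPM in VE-822 in 92.1, against 19.3, 16.6 and 9.64 CPM in DMSO. The lowest DMSO value was that of library 3, and the fold change was -1.41 ± 0.218 with it (adjusted p = 0.00113) and -1.68 without it. In MP38, CCNE2 had 3.98, 3.28 and 3.07 CPM in VE-822, against 4.17, 3.80 and 5.01 CPM in DMSO. These MP38 groups overlapped, and the call of -0.33 ± 0.122 (adjusted p = 0.0276) was lost without VE-822 library 2 (adjusted p = 0.0937), VE-822 library 3 (0.114) or DMSO library 3 (0.164). CCNE2 shares 37.0% of its exon bases with INTS8 on the other strand.

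CCNE1 showed the weight of DMSO library 3. It had 11.1, 10.1 and 11.1 CPM in VE-822 in 92.1, against 17.6, 16.1 and 9.80 CPM in DMSO, where library 3 lay below all VE-822 libraries. The fold change was -0.43 ± 0.186 and not called with that library (adjusted p = 0.0983), and -0.68 and called without it (adjusted p = 1.55e-08). With all libraries kept, it was called by DESeq2 (-0.46, adjusted p = 0.0332) and by edgeR with no filter on low counts (-0.47, adjusted p = 0.00101). In MP38, CCNE1 averaged 9.82 ± 0.578 CPM in VE-822 and 10.5 ± 0.236 CPM in DMSO, overlapping groups that were not called.

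CDK2, the partner of cyclins E and A, had 612, 613 and 605 CPM in VE-822 in 92.1, against 780, 763 and 795 CPM in DMSO, a fold change of -0.35 ± 0.0437. MP38 had 253, 249 and 241 CPM in VE-822, against 179, 175 and 175 CPM in DMSO, a rise of 0.49 ± 0.0364. These values are uncertain. CDK2 (chr12:55966781-55972789) lies inside the span of PMEL (chr12:55954105-55973317), a melanosome gene on the opposite strand with 89 shared exon bases, and whether counting used strand is not stated. Of the 38 members, 11 share exon bases with another protein-coding gene in the GENCODE annotation. Apart from CDK2, CCNE2, CDK4 and CCNK, they are CCND2 (13.8%), CCNH (12.7%), CDK5 (11.3%), CCND1 (10.3%), CCNA2 (9.08%), CDK14 (2.94%) and CDK10 (0.324%). CDK2 counts were 8.72% to 8.93% of those of PMEL in VE-822 in 92.1 and 11.9% to 12.3% in DMSO. In MP38 they were 7.81% to 8.31% in VE-822 and 8.82% to 9.07% in DMSO. PMEL itself had fold changes of 0.10 ± 0.0493 in 92.1, not called but 0.08 and called without DMSO library 3 (adjusted p = 0.0276), and 0.64 ± 0.0394 in MP38, and its part in the CDK2 values was not tested. CCNA1, cyclin A1, which is known mainly from the germ line, had 80, 49 and 66 reads in VE-822 in 92.1, against 60, 61 and 32 in DMSO; in MP38 it had 16, 9 and 12 reads in VE-822, against 1, 2 and 5 in DMSO.

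The G1 genes had called changes of at most 0.55 on the log2 scale, that of CDK6 in MP38. In 92.1, where 39.9% of all genes were called, 2 of the 4 tested were lower (CDK4 and CCND3) and none higher. Without DMSO library 3, when 55.7% of all genes were called, the lower ones were 3, with CCND1 added. The class median was -0.20 with all libraries. In MP38, where 52.3% of all genes were called, 2 of 5 were higher (CDK6 and CDK4) and none lower, with a median of 0.11.

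CCND1, the chief D-type cyclin of both lines, was called in neither. It had 419, 408 and 432 CPM in VE-822 in 92.1, against 455, 427 and 449 CPM in DMSO. In MP38 it had 480, 486 and 507 CPM in VE-822, against 463, 463 and 479 CPM in DMSO. The fold changes were -0.08 ± 0.0480 in 92.1, which became -0.10 and called without DMSO library 3 (adjusted p = 0.0191), and 0.07 ± 0.0383 in MP38 (adjusted p = 0.145). By length-scaled level CCND1 made up 93.1% ± 0.188 of the summed FPKM of the D-type cyclins in 92.1 in VE-822 and 91.8% ± 1.20 in DMSO. CCND2 was at or near 0 in 92.1, with 4, 8 and 3 reads in VE-822 and 0 in each DMSO library, and had 17 to 21 reads per library in VE-822 in MP38, against 13 to 17 in DMSO.

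CCND3 had 37.3, 38.1 and 38.2 CPM in VE-822 in 92.1, against 52.7, 51.2 and 39.7 CPM in DMSO, with DMSO library 3 again nearest to VE-822. Its fold change was -0.34 ± 0.0992 (adjusted p = 0.0252), and -0.49 without that library. In MP38 it averaged 33.6 ± 0.349 CPM in VE-822 and 33.5 ± 1.27 CPM in DMSO, a fold change of 0.0031 ± 0.0440.

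CDK4 and CDK6 are the kinases that the D-type cyclins activate. CDK4 had 124, 128 and 123 CPM in VE-822 in 92.1, against 158, 152 and 156 CPM in DMSO, a fold change of -0.32 ± 0.0431 (adjusted p = 0.000594). In MP38 it had 155, 157 and 168 CPM in VE-822, against 151, 153 and 140 CPM in DMSO. Its call there, 0.11 ± 0.0427 (adjusted p = 0.035), was lost with scaling by library size alone, with genes of at least 5 CPM and by limma. Leaving out any of 4 libraries also ended it, as did a block for replicate number. CDK4 shares 43.2% of its exon bases with TSPAN31 on the other strand.

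CDK6 was the G1 gene with the clearest rise. It had 137, 130 and 137 CPM in VE-822 in MP38, against 90.2, 93.2 and 91.8 CPM in DMSO, a fold change of 0.55 ± 0.0372 (adjusted p = 1.19e-10). In 92.1 it had 181, 180 and 173 CPM in VE-822, against 170, 170 and 194 CPM in DMSO; these groups overlapped and the value was -0.0015 ± 0.0609. The difference between the lines was -0.52 ± 0.0731 (adjusted p = 2.98e-05).

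The 13 transcriptional members lay between -0.50 and 0.21 in 92.1 and between -0.52 and 0.61 in MP38. In 92.1, where 39.9% of all genes were called, 1 was higher (CCNL2), 4 were lower (CDK19, CCNC, CCNT1 and CCNT2) and 8 were not called. Their median was -0.06, against 0.03 over all genes, and 0.01 with scaling by library size alone, against 0.10 over all genes. Without DMSO library 3, when 55.7% of all genes were called, 1 was higher and 6 lower. In MP38, where 52.3% of all genes were called, 8 were higher (CCNH, CDK8, CCNK, CDK13, CCNL1, CDK7, CCNT1 and CCNC), 2 were lower (CCNL2 and CDK19) and 3 were not called, with a median of 0.15.

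Cyclin H and CDK7 form the CDK-activating kinase, which is also part of the transcription factor TFIIH. CCNH had 45.8, 44.6 and 47.7 CPM in VE-822 in MP38, against 30.3, 30.4 and 29.7 CPM in DMSO. At 0.61 ± 0.0427 this was the largest rise of the class. CCNH shares 12.7% of its exon bases with RASA1 on the other strand. In 92.1, CCNH had 33.1, 32.9 and 33.1 CPM in VE-822, against 34.8, 33.6 and 35.0 CPM in DMSO, a value of -0.06 ± 0.0495 that was not called (adjusted p = 0.352). CDK7 had fold changes of -0.11 ± 0.132 in 92.1, not called, and 0.15 ± 0.0427 in MP38.

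CDK8 and CDK19 are alternative kinases of the Mediator complex, both bound by cyclin C. CDK19 was lower in both lines. It had 22.0, 20.4 and 20.5 CPM in VE-822 in 92.1, against 26.6, 27.1 and 35.3 CPM in DMSO. In MP38 it had 27.3, 26.9 and 24.8 CPM in VE-822, against 36.4, 37.5 and 37.6 CPM in DMSO. The fold changes were -0.50 ± 0.108 in 92.1 and -0.50 ± 0.0470 in MP38. The difference was 0.03 ± 0.122 (adjusted p = 0.886). Without DMSO library 3 the 92.1 value of CDK19 was -0.39, and the difference was 0.12 (adjusted p = 0.145, edgeR interaction test). CDK8 had 25.4, 25.8 and 27.4 CPM in VE-822 in MP38, against 20.5, 21.7 and 20.8 CPM in DMSO (0.32 ± 0.0497), and was not called in 92.1 (0.03 ± 0.0573). Cyclin C, CCNC, had -0.32 ± 0.0583 in 92.1 and 0.11 ± 0.0416 in MP38.

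Cyclins T1 and T2 with CDK9 form P-TEFb, which releases paused RNA polymerase II, and cyclin K with CDK12 or CDK13 sustains elongation. In 92.1, CCNT1 (-0.22 ± 0.0434) and CCNT2 (-0.21 ± 0.0430) were lower, while CDK9, CCNK, CDK12 and CDK13 lay between -0.13 and 0.11 and were not called; CDK12 (-0.20) and CDK13 (-0.14) were called lower without DMSO library 3. In MP38, CCNT1 (0.15 ± 0.0368), CCNK (0.25 ± 0.0658) and CDK13 (0.19 ± 0.0424) were higher, while CCNT2, CDK9 and CDK12 lay between 0.03 and 0.07 and were not called. CCNK shares 59.5% of its exon bases with CCDC85C on the other strand.

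Cyclins L1 and L2 bind CDK11 and act in splicing. CCNL2 had 306, 304 and 295 CPM in VE-822 in 92.1, against 260, 252 and 272 CPM in DMSO. In MP38 it had 222, 222 and 231 CPM in VE-822, against 316, 316 and 335 CPM in DMSO. The groups stood apart in both lines but in opposite order, higher by 0.21 ± 0.0475 in 92.1 and at -0.52 ± 0.0386 in MP38, and the difference of 0.76 ± 0.0617 (adjusted p = 8.82e-08) was the largest on the upper side among members with more than a few reads. CCNL1 was not called in 92.1 (0.05 ± 0.0434) and was higher in MP38 (0.18 ± 0.0354).

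Of the 11 members with other roles, 2 were higher and 6 lower in 92.1, where 39.9% of all genes were called, with a median of -0.20. In MP38, where 52.3% of all genes were called, 3 were higher and 4 lower, with a median of 0.03. Without DMSO library 3, when 55.7% of all genes were called, the counts in 92.1 were 3 and 7. CDK14, a kinase bound at the membrane by cyclin Y, had 8.24, 8.09 and 8.03 CPM in VE-822 in 92.1, against 14.2, 14.0 and 10.9 CPM in DMSO. At -0.68 ± 0.102, and -0.82 without DMSO library 3, it was the lowest of these 11 in 92.1. In MP38 it had 0.15 ± 0.0574. That call was lost by DESeq2 and limma, with scaling by library size alone, with no filter and with genes of at least 5 CPM. Leaving out any of 5 libraries also ended it, as did a block for replicate number. The partner of CDK14, CCNY, was lower in both lines, -0.31 ± 0.0536 in 92.1 and -0.18 ± 0.0394 in MP38.

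CDK16, another kinase that cyclin Y activates, had 139, 143 and 156 CPM in VE-822 in MP38, against 104, 106 and 102 CPM in DMSO, a rise of 0.49 ± 0.0428. In 92.1 it had 99.0, 98.0 and 97.0 CPM in VE-822, against 114, 111 and 104 CPM in DMSO (-0.16 ± 0.0497). This call was lost with scaling by library size alone, with genes of at least 5 CPM, by limma and when any of 5 libraries was left out. CDK18, a relative of CDK16, ran the other way, with 0.26 ± 0.0857 in 92.1 and -0.10 ± 0.0355 in MP38. CDK17 was lower in 92.1 (-0.25 ± 0.0561) and not called in MP38 (0.07 ± 0.0463).

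CCNO, known for its part in making multiciliated cells, was higher in 92.1 (0.28 ± 0.0893) and lower in MP38 (-0.13 ± 0.0508). CCNI was lower in MP38 (-0.21 ± 0.0387) and not called in 92.1 (0.06 ± 0.0631), where it was called higher without DMSO library 3 (0.10). CCNG2, an atypical cyclin linked to cell cycle exit, was higher in MP38 (0.18 ± 0.0494) and not called in 92.1 (-0.21 ± 0.0904), where it was called lower without DMSO library 3 (-0.12). CCNJ (-0.27 ± 0.0768) and CDK10 (-0.20 ± 0.0462) were lower in 92.1 and not called in MP38, where they had 0.03 ± 0.0582 and -0.10 ± 0.0431. CDK5, a kinase best known from neurons, had 0.17 ± 0.0600 in 92.1 and 0.12 ± 0.0610 in MP38, neither of them called. In 92.1 it was called with scaling by library size alone (0.24), with genes of at least 5 CPM (0.26) and by limma (0.22), and in MP38 without VE-822 library 1 (0.18).

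The difference between the lines was tested in 1 fit of all 12 libraries, as the 92.1 response minus the MP38 response. It was called for 27 of 38 members, 5 above and 22 below 0, against 40.9% of all 24958 genes (22.1% above and 18.8% below). Without DMSO library 3 it was called for 34 members, 5 above and 29 below, against 49.1% of all genes (24.3% above and 24.8% below). Both counts include CCND2 (above 0), too low to test in the fit of 92.1, and CCNA1 (below 0), too low in that of MP38. Of the 36 members tested in both lines, 11 were lower in 92.1 and higher in MP38, against 8.32% of all genes tested in both, and 3 (CCNL2, CCNO and CDK18) were higher in 92.1 and lower in MP38, against 5.94%, or 14.3% of all genes for both patterns together. CCNE2, CCNY and CDK19 were called in the same direction in both lines, which 12% of all genes were. CCND1, CCNE1, CDK5, CDK9 and CDK12 were called in neither line.

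The correlation of the 2 responses depended on the genes with the widest changes. Across the 36 members the 92.1 and MP38 fold changes had a Pearson r of -0.66 and a Spearman rho of -0.29. Without the 4 G2/M genes r was -0.25 and rho 0.01 over 32 members, and without CCNA2 as well they were 0.18 and 0.11 over 31. Of those 31, 9 were still called in opposite directions, against 14.3% of all genes tested in both lines. CCNC, CCNT1, CDK2, CDK4, CDK14 and CDK16 were lower in 92.1 and higher in MP38. CCNL2, CCNO and CDK18 were higher in 92.1 and lower in MP38. At least 1 alternative fit ended the 92.1 calls of CCNO, CDK16 and CDK18. The same held for the MP38 calls of CCNC, CCNO, CDK4, CDK14 and CDK18. These correlations and counts are descriptions across genes, which share libraries and are not independent replicates.

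**Figure D4:**
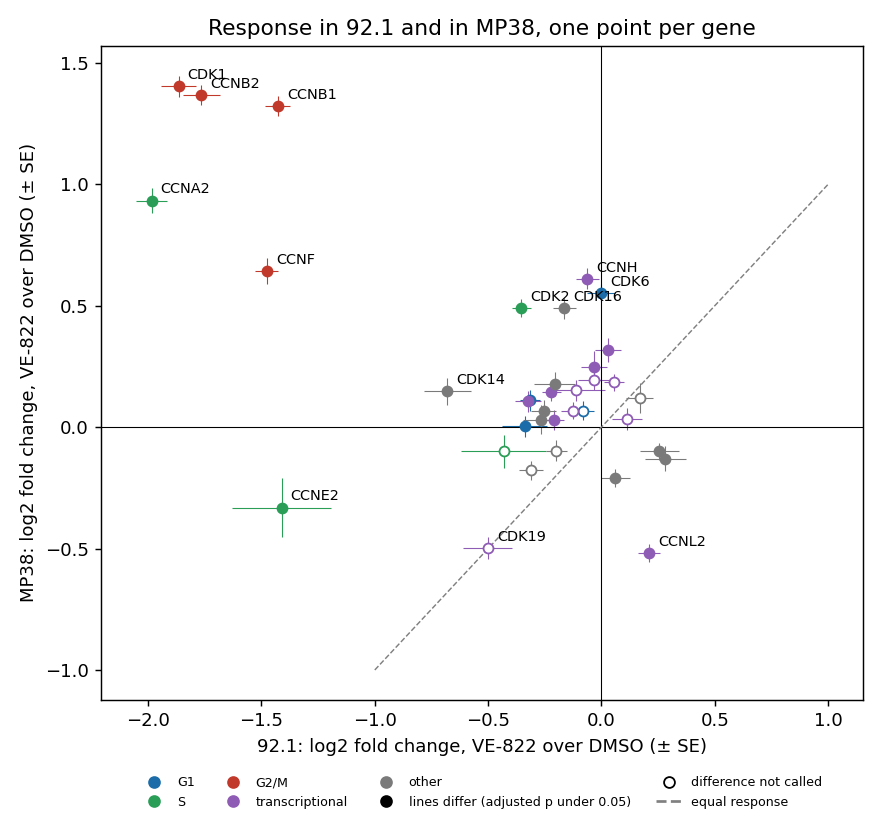
Log2 fold change (VE-822 over DMSO, with SE bars) of each member tested in both lines, 92.1 on the x axis and MP38 on the y axis; filled points differ between the lines in the interaction test, and the dashed line marks an equal response. CDK1, CCNB1, CCNB2, CCNF and CCNA2 lie at the upper left, apart from the other members, and CDK19 lies on the dashed line at -0.50 in both lines.

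Set side by side as deposited FPKM, which were scaled within each line's own table, 31 of the 38 members had a higher DMSO level in 92.1 than in MP38, with a median ratio of 1.38. In VE-822, 26 members had a higher level in 92.1, with a median ratio of 1.26. The ratios were not taken over all genes, so a general offset between the 2 tables was not tested. The G2/M genes and CCNA2 were among the 31 members higher in DMSO in 92.1, as were CDK2 (4.26), CCNE2 (3.39) and CCNT2 (2.61). In DMSO, CCNA2 stood at 57.3 ± 0.863 FPKM in 92.1 and 5.65 ± 0.169 FPKM in MP38, 10.1 times as high. CDK1 stood at 44.97 ± 3.04 FPKM in 92.1 and 7.51 ± 0.427 FPKM in MP38 in DMSO, 5.99 times as high. For CCNF, CCNB1 and CCNB2 the DMSO ratios of 92.1 over MP38 were 5.71, 3.94 and 2.09.

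In VE-822 these gaps were smaller or had turned over. CDK1 stood at 12.9 ± 0.911 FPKM in 92.1 and 19.3 ± 0.601 FPKM in MP38, a ratio of 0.669. The ratios of 92.1 over MP38 in VE-822 were 0.631 for CCNB1 and 0.257 for CCNB2, below 1, and 1.42 for CCNF and 1.44 for CCNA2, above 1. No test was run across the tables.

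The order of the members by FPKM also differed between treatments. In 92.1, the widest moves were those of CCNF, 30th in VE-822 and 13th in DMSO, CCNB2, 25th and 9th, and CDK9, 10th and 18th. There CDK2, CCNI and CCND1 held the first 3 ranks in VE-822 and in DMSO, with CCND1 at 90.3 ± 3.72 and 90.9 ± 2.67 FPKM, while CCNB1 was 6th in VE-822 and 4th in DMSO, CCNA2 11th and 5th, and CDK1 14th and 7th. In MP38, CCND1 and CCNI held the first 2 ranks in both treatments, while CCNB2 was 7th in VE-822 and 12th in DMSO and CDK1 9th and 19th. In MP38 in DMSO, the neighbours CDK4 (48.5 ± 2.53 FPKM) and CCNL2 (47.6 ± 1.54) did not differ beyond their spread, nor in 92.1 in VE-822 did CDK9 (15.2 ± 0.300), CCNA2 (15.2 ± 1.15) and CDK6 (14.9 ± 0.176).

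Within families the make-up was measured as each gene's share of the summed FPKM, with an exact two-sided permutation test whose smallest p with 3 against 3 libraries is 0.1, so no share can pass 0.05. CDK8 made up 68.2% ± 1.98 of CDK8 and CDK19 in VE-822 in MP38 and 55.0% ± 0.600 in DMSO; in 92.1 it made up 83.5% ± 0.524 in VE-822 and 78.0% ± 1.82 in DMSO. CCNE1 made up 77.0% ± 1.56 of the E-type cyclins in VE-822 in 92.1 and 63.3% ± 1.25 in DMSO, and 83.6% ± 1.25 in VE-822 in MP38 and 81.4% ± 1.94 in DMSO. The 92.1 shares of CCNE1 did not overlap, DMSO library 3 included; both E-type cyclins were at their lowest DMSO level in that library.

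The balance of CDK4 and CDK6 moved the same way in both lines. CDK6 made up 26.5% ± 0.403 of the pair in VE-822 in 92.1 and 22.4% ± 1.31 in DMSO, and 17.5% ± 0.589 in VE-822 in MP38 and 13.6% ± 0.606 in DMSO. CCNL1 made up 27.0% ± 0.630 of the L-type cyclins in VE-822 in MP38 and 18.5% ± 0.498 in DMSO, but 28.4% ± 0.392 in VE-822 in 92.1 and 30.7% ± 0.630 in DMSO. CDK16 made up 52.2% ± 1.42 of CDK16, CDK17 and CDK18 in VE-822 in MP38 and 42.7% ± 0.515 in DMSO, against 54.0% ± 0.0174 in VE-822 in 92.1 and 56.7% ± 2.48 in DMSO, where the groups overlapped. CCNB1 made up 79.2% ± 0.681 of the B-type cyclins in VE-822 in 92.1 and 75.0% ± 1.89 in DMSO, and 60.7% ± 0.235 in VE-822 in MP38 and 61.5% ± 0.352 in DMSO.

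**Figure D5:**
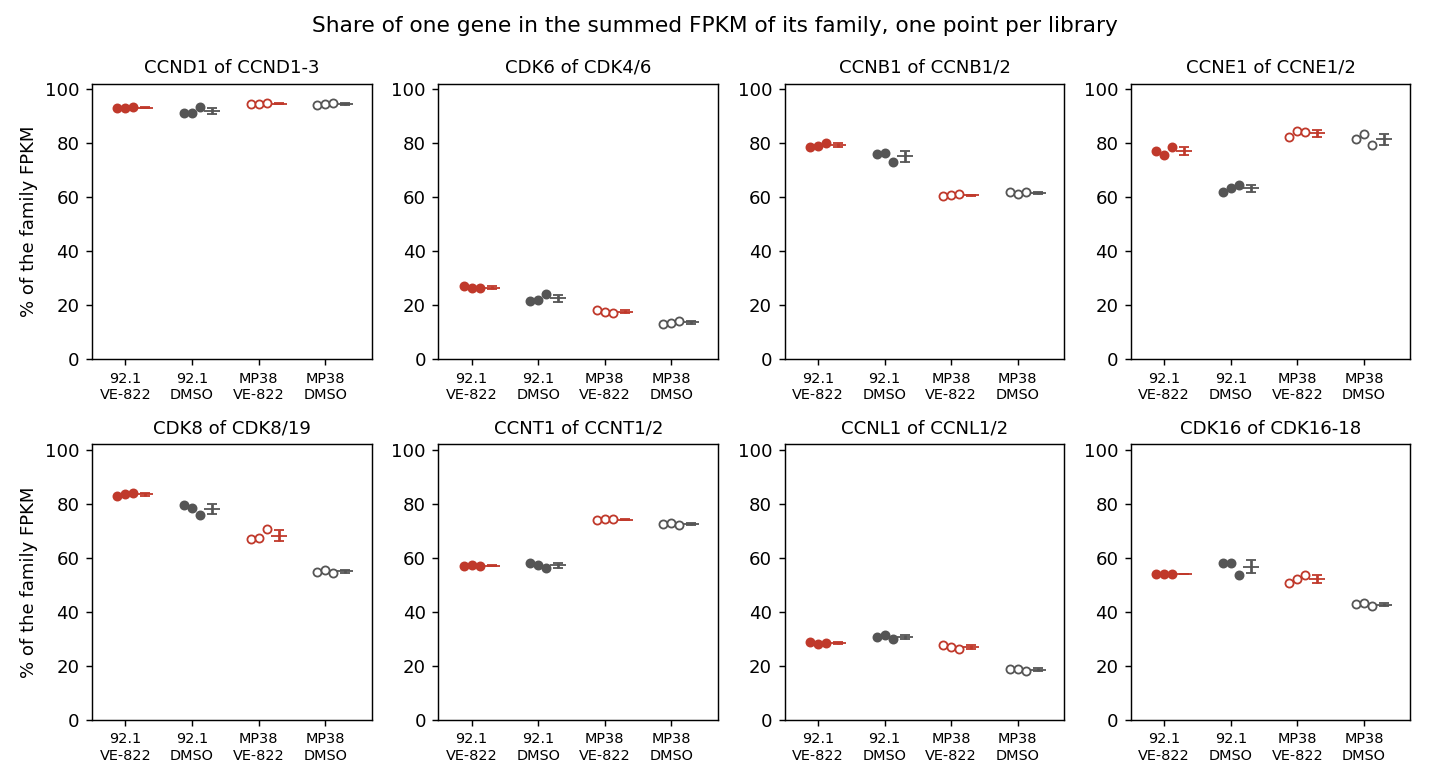
Share of 1 gene in the summed FPKM of its family, in percent, 1 point per library, with mean and SD bars; filled points are 92.1, open points MP38, red VE-822 and grey DMSO. CDK8 of CDK8/19 and CCNL1 of CCNL1/2 are higher in VE-822 in MP38, CCNE1 of CCNE1/2 is higher in VE-822 in 92.1, and CCND1 stays above 90% of the D-type cyclins in every library.

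Genes that act on cyclins and CDKs were read from 5 further lists. Their counts stand against 39.9% of all genes called in 92.1 and 52.3% in MP38, and their medians against 0.03 and -0.01 over all genes. CDK inhibitors bind and block the kinases. Of 7, 2 were higher and 4 lower in 92.1 in VE-822, with a median of -0.72, and 6 were higher and 1 lower in MP38, with a median of 0.61. The lower one in MP38 was CDKN1C, which encodes p57 (-0.82 ± 0.0483). CDKN1A, which encodes the p53 target p21, rose in both lines. It averaged 511 ± 52.4 CPM in VE-822 in 92.1 and 18.4 ± 2.23 CPM in DMSO, 27.9 times as high, and 44.1 ± 7.39 CPM in VE-822 in MP38 and 10.4 ± 0.743 CPM in DMSO, 4.25 times as high. The difference of the log2 fold changes was 2.74 ± 0.158 (adjusted p = 1.63e-09). CDKN2B was higher in both lines (0.49 ± 0.0735 in 92.1 and 1.43 ± 0.0724 in MP38), while CDKN2C was lower in 92.1 (-1.41 ± 0.115) and higher in MP38 (0.62 ± 0.0517).

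Among 13 regulators of CDK activity and cofactors, 3 were higher and 9 lower in 92.1, with a median of -1.04, and 10 were higher and 1 lower in MP38, with a median of 0.47. The small CDK-binding proteins CKS1B and CKS2 were lower in 92.1 and higher in MP38. CKS1B had -1.73 ± 0.0499 in 92.1 and 0.80 ± 0.0448 in MP38, and CKS2 had -1.04 ± 0.0467 in 92.1 and 1.66 ± 0.0486 in MP38. WEE1, which inhibits CDK1, had -1.51 ± 0.0528 in 92.1 and 0.22 ± 0.0434 in MP38, and the activating phosphatase CDC25B had -1.21 ± 0.0560 in 92.1 and 0.47 ± 0.0385 in MP38.

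Of 10 genes of cyclin destruction, 1 was higher and 5 lower in 92.1, with a median of -0.27, and 4 were higher and 1 lower in MP38, with a median of 0.06; the MP38 share was near that of all genes. CDC20, which targets cyclin B to the anaphase-promoting complex, had -1.51 ± 0.0839 in 92.1 and 1.16 ± 0.0425 in MP38. UBE2C, the ubiquitin-conjugating enzyme of that complex, had -1.70 ± 0.0740 in 92.1 and 1.499 ± 0.0962 in MP38. FBXW7, which marks cyclin E, was higher in 92.1 (0.47 ± 0.0537) and had -0.00 ± 0.0618 in MP38, not called; SKP2, which marks the inhibitor p27, was lower in 92.1 (-0.70 ± 0.0683) and in MP38 (-0.19 ± 0.0648).

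Of 13 partners of the transcriptional CDKs, 3 were higher and 2 lower in 92.1, with a median of 0.03, and 7 were higher and 2 lower in MP38, with a median of 0.12; the 92.1 share and median were near those of all genes. HEXIM1, which holds P-TEFb inactive, was higher in both lines (0.41 ± 0.0614 in 92.1 and 0.50 ± 0.0374 in MP38), and the difference was not called (-0.06 ± 0.0706). Of the 17 other genes of the cyclin and CDK families, 3 were higher, 2 lower and 12 not called in 92.1, and of 13 tested in MP38, 2 were higher, 1 lower and 10 not called. CCNG1, a p53 target, was higher in MP38 (0.51 ± 0.0447) and not called in 92.1 (0.02 ± 0.0675). Without DMSO library 3, when 55.7% of all genes were called, the 92.1 counts of higher and lower genes were 2 and 4 for the inhibitors, 3 and 10 for the regulators, 2 and 7 for cyclin destruction, 5 and 5 for the partners and 6 and 4 for the rest of the families.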

How the data were processed

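Poly(A) RNA from 92.1 and MP38 cells in VE-822 or DMSO gave 12 libraries, 3 per group. Per the submitters' processing notes, STAR 2.7.11a and featureCounts 2.0.6 were used with GRCh38.p13, as were cutadapt 4.8, FastQC 0.12.1 and MultiQC 1.7; strand use in counting is not given in the sources used here. The authors deposited raw counts per gene, 1 table per line, and FPKM, which equal those counts scaled by feature length and library total to within 0.0005.

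Each line was fitted alone in edgeR 4.0.16 (R 4.3.3): filterByExpr (minimum count 10, minimum total 15), TMM scaling, quasi-likelihood F test, Benjamini-Hochberg over all genes tested, called under 0.05. The difference between lines came from a joint fit of features in both tables. The SE was taken from the F statistic. Class medians and counts carry no test. All members may be named; of the other lists, the called genes with the smallest adjusted p in each line, at most 4 per list and line, with both lines' values given. Members and lists were chosen with earlier results of these data known. On simulated data, 81.2% of genes at 1 CPM or more changed 1.5-fold were recovered in 92.1, 87.8% in MP38 and 80.0% in the difference. At that level 4-fold changes were all recovered. Far fewer genes were changed in the simulation than were called in the data, so these rates may not hold for the data. Alternatives were DESeq2 1.42.0, other scalings and filters, limma 3.58.1 on log2(FPKM + 1), a replicate block and leaving out each library. Promoter windows were searched in Python 3.11.15.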

Additional observations from a re-analysis of the deposited data

Results flagged for a closer look

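The 92.1 response minus the MP38 response (VE-822 over DMSO, log2, edgeR interaction test over 12 libraries) was called for 27 of 38 members, against 40.9% of all genes. That call is why each of the 27 is listed here. The G2/M genes and CCNA2 had CDK1 at -3.24, CCNB2 at -3.10, CCNA2 at -2.89, CCNB1 at -2.72 and CCNF at -2.09. In the S class, CCNE2 stood at -1.05, CDK2 at -0.81 and CCNA1 at -2.13, the last on 16 or fewer reads per library in MP38.

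In the G1 class, CDK6 stood at -0.52, CDK4 at -0.40 and CCND3 at -0.31. CCND2 stood at 4.43, a value that depends on the prior count, since the DMSO libraries of 92.1 held 0 reads, and that gives no bound.

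Among transcriptional members, CCNH stood at -0.64, CCNC at -0.40, CCNT1 at -0.34, CDK8 at -0.26, CCNK at -0.25, CCNT2 at -0.21 and CCNL2 at 0.76. Among those with other roles, CDK14 stood at -0.80, CDK16 at -0.62, CCNG2 at -0.35, CDK17 at -0.29, CCNJ at -0.27, CCNI at 0.30, CDK18 at 0.38 and CCNO at 0.44.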

How the results depend on the processing

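Over all alternatives, 17 of 22 calls in 92.1 (not CCND3, CCNJ, CCNO, CDK16 and CDK18), 17 of 26 in MP38 (not CCNC, CCNE2, CCNG2, CCNK, CCNO, CDK13, CDK14, CDK18 and CDK4) and 19 of 27 differences (not CCNA1, CCND2, CCND3, CCNG2, CCNJ, CCNK, CCNT2 and CDK8) were kept. No called member changed sign in either line, and among the differences CCND2 alone did, to -0.0086 with limma on log2(FPKM + 1). Of members not called, 9 of 15 in 92.1, 4 of 11 in MP38 and 7 of 11 differences changed sign in at least 1 alternative. Some uncalled members gained a call: in 92.1 CCND1, CCNE1, CCNG2, CCNI, CCNL1, CDK5, CDK9, CDK12 and CDK13, in MP38 CDK5 and CDK10, and for the difference CCND1, CCNE1, CCNL1, CCNY, CDK9, CDK10, CDK12 and CDK13. The cause of these changes was not tested.

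Under library size alone, 92.1 had 5 members higher, medians of -0.13 (G1) and 0.0074 (transcriptional), CCNH at 0.0074, CCNK at 0.038, CDK6 at 0.068 and CDK13 at 0.036. There MP38 had medians of 0.11 (transcriptional) and -0.0072 (other), CCND3 at -0.035, CCNT2 at -0.011, CCNJ at -0.0072 and CDK9 at -0.0053, and the difference of CDK10 was 0.0039. With that scaling the median of all genes was 0.10 in 92.1 and -0.05 in MP38. With limma on log2(FPKM + 1), 92.1 had 5 members higher, medians of -0.12 (G1), -1.45 (G2/M), 0.0061 (transcriptional) and -0.11 (other), CCNH at 0.0061, CCNK at 0.026, CDK6 at 0.066 and CDK13 at 0.029. In MP38 it gave medians of 0.029 (G1), 1.24 (G2/M) and 0.099 (transcriptional), CCND3 at -0.030, CCNT2 at -0.0086, CCNJ at -0.0041 and CDK9 at -0.0054.

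With only genes of at least 5 CPM on average, which tests fewer genes, 92.1 had 2917 genes higher and 2805 lower, 6 members higher, medians of -0.11 (G1), -0.83 (S), 0.029 (transcriptional) and -0.11 (other), CCND1 at 0.012, CCNH at 0.029, CCNK at 0.059, CDK6 at 0.088 and CDK13 at 0.059. MP38 had an S median of 0.47 and CCND3 at -0.014, and the differences were 0.0016 for CCND1, 0.020 for CCNL1, 0.015 for CCNY and 0.047 for CDK10. With no filter, 92.1 had medians of -0.11 (G1) and -0.096 (transcriptional) and CDK8 at -0.0062, and MP38 an S median of 0.49. DESeq2 and its size factors in edgeR both gave a transcriptional median of -0.085 in 92.1 and a CDK19 difference of -0.021. CCNA2 counted with G2/M gave a G2/M median of -1.76 in 92.1 and an S median of -0.10 in MP38. From raw counts, the change in share was -5.40 points for CDK4 of CDK4/6, 16.2 for CCNE1 and 8.03 for CDK8 in 92.1, and -7.40 for CDK4 and 9.57 for CCNL1 in MP38.

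Leaving out 1 library at a time gave 3343 to 6899 genes lower in 92.1, the highest without DMSO library 3. It gave 1 to 4 members higher in 92.1, beside 3399 to 6377 of all genes. In MP38 it gave 4 to 7 members lower, beside 4850 to 5186 of all genes. The median ran from -0.087 to -0.063 for transcriptional members in 92.1, from 0.17 to 0.50 for S members in MP38 and from -0.027 to 0.052 for other members in MP38. Single members that changed sign ran in 92.1 from -0.14 to 0.35 (CCNA1), -0.0089 to 0.10 (CCNI), -0.14 to 0.00032 (CDK13), -0.060 to 0.033 (CDK6), -0.23 to 0.052 (CDK7) and -0.019 to 0.047 (CDK8). In MP38 they ran from -0.030 to 0.027 (CCND3) and -0.027 to 0.069 (CCNJ), and for the difference from -0.068 to 0.12 (CDK19), -0.012 to 0.11 (CDK5) and -0.0083 to 0.15 (CDK9).

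Replicate numbers are shared by the groups, but same-numbered libraries correlated by 0.076, 0.090 and 0.11 in 92.1 and by -0.033, -0.011 and -0.067 in MP38, so they were not taken as pairs. A replicate block gave 2 members higher and 19 lower in 92.1, 16 and 5 in MP38 and 5 and 21 for the difference, with CDK6 at 0.0010 in 92.1. Over all genes, that block gave 4429 higher and 4333 lower of 22943 in 92.1 and 5494 and 5172 of 21415 in MP38. For the difference it gave 5315 and 4566 of 24958. In 92.1, but not in MP38, each VE-822 library correlated best with its own number, a hint from the data only. CCND2 in 92.1, where each library held more counts than in MP38, and CCNA1 in MP38 were too low to test.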
